A study of Mus musculus with 24 samples.

Results

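The Myc and Max network factors were 8 of the 21671 genes in the files: Myc, Mycn, Max, Mxd1, Mxd3, Mxd4, Mxi1 and Mnt. They were taken from every sample by their gene symbols, and all 8 passed the filter on low values, Mycn in non-B cells through 1 sample only. Spleens of C57/Bl6 mice aged 8 weeks were split into B cells and the rest, called non-B cells, and the RNA of both was sequenced. Both populations came from Trp53+/+ or Trp53-/- animals that were either mock-treated (mock) or killed 4 h after whole-body irradiation at 7 Gy (IR). Each combination of cell type, genotype and treatment held 4 Trp53+/+ or 2 Trp53-/- samples, 24 in all and 8 groups. Red blood cells were lysed in every spleen suspension, B cells were retained on B220 magnetic beads, and non-B cells were the flow-through of the same columns. The Trp53-/- animals carried the p53Δ knockout allele. The comparisons address how the response of this network to DNA damage depends on p53 and on the cell type.

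Myc and its paralogue Mycn are transcription factors that bind DNA as dimers with Max, chiefly at the sequence CACGTG (the E-box), and activate genes for ribosome production, nucleotide synthesis and growth. The Mxd proteins, Mxi1 and Mnt compete for the same partner, and their dimers with Max recruit the Sin3 corepressor complex to the same sites. In lymphocytes Myc is known to rise on activation, while Mxd1 and Mxd4 are known from resting and differentiating cells.

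On NCBIM37, the assembly that mm9 represents, the gene models were Myc chr15:61816946-61821929 (+), Mycn chr12:12942902-12948720 (-), Max chr12:78038256-78063235 (-), Mxd1 chr6:86597038-86619153 (-), Mxd3 chr13:55426529-55431119 (-), Mxd4 chr5:34516536-34530369 (-), Mxi1 chr19:53384996-53450300 (+) and Mnt chr11:74644422-74659227 (+). RefSeq promoter windows on GRCm38.p6, from 250 bases before to 50 bases after a transcript start, were matched by symbol for 7 of the 8 factors, all but Myc. The E-box CACGTG, which reads the same on both strands, was found in the windows of Max, Mxd4 and Mnt, against 7.15% of all 32851 windows. The stretches around these E-boxes are shown because these 3 factors were the matched ones that hold the Myc and Max binding sequence, with the E-box in capitals, 5' to 3' on the strand of the gene.
Max, chr12:76962224-76962298 (-), E-box beginning 3 bases before the start: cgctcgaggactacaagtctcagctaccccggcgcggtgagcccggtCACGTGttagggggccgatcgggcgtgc
Mxd4, chr5:34187877-34187960 (-), E-box beginning 219 bases before the start: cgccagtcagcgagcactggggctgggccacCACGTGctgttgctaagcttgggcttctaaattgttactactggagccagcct
Mnt, chr11:74830754-74830853 (+), E-box beginning 123 bases before the start: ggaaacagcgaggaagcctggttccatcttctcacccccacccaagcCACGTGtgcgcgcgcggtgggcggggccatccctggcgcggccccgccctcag
The p53 decamer motif, searched on both strands, was in 8.36% of all windows and in none of the windows of these 7 factors, which says only that its letters are not there. A match is a run of letters and was not tested for binding.

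Levels are given as RPKM, reads scaled to gene length in kilobases and to the library's reads on exons, and changes are on the log2(RPKM + 0.5) scale, which understates the change of low genes. A change was called at a Benjamini-Hochberg adjusted p under 0.05 over all genes tested and a log2 change beyond 0.58 in either direction, and a difference between 2 responses at the same adjusted p alone. Differences between the IR responses of the genotypes are Trp53+/+ minus Trp53-/-, and differences between cell types are B minus non-B. All adjusted p-values are those of limma unless a permutation test is named. Estimated depth ran from 4.41 to 10.84 M exon reads (median 8.60 M), and irradiated Trp53+/+ B cell samples 1 and 2 were the shallowest, with 5.75 and 4.41 M. Trp53 RNA averaged 46.2 RPKM in mock Trp53+/+ B cells and 21.6 RPKM in mock Trp53-/- B cells, so that reads of the gene remained in the knockout. The p53 target Cdkn1a, an inhibitor of cyclin-dependent kinases, rose in irradiated Trp53+/+ B cells by 5.83 (standard error 0.12, adjusted p = 1.88e-11) and was not called in Trp53-/- B cells (0.02, standard error 0.18, adjusted p = 0.946). Between 5.42% and 13.1% of 1440 olfactory and vomeronasal receptor genes, which are silent in blood cells, were above 0 in the mock and Trp53-/- samples. This share was 36.7%, 47.3%, 7.01% and 15.97% in irradiated Trp53+/+ B cells 1 to 4, and 24.7%, 8.61%, 51.3% and 35.8% in the non-B samples of the same group. It was thus high mainly in irradiated Trp53+/+ samples. As a covariate it can take up part of their IR response, and such a fit cannot fully separate the 2. The summed level of 8 B cell markers was 903 to 1053 RPKM in mock Trp53+/+ B cells and 309 to 495 RPKM in the matching non-B cells, and that of 8 myeloid markers 207 to 380 and 517 to 692 RPKM, so that markers of each type were read in both populations. In such bulk samples, fewer cells of a type and less RNA per cell cannot be told apart.

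**Figure D1:**
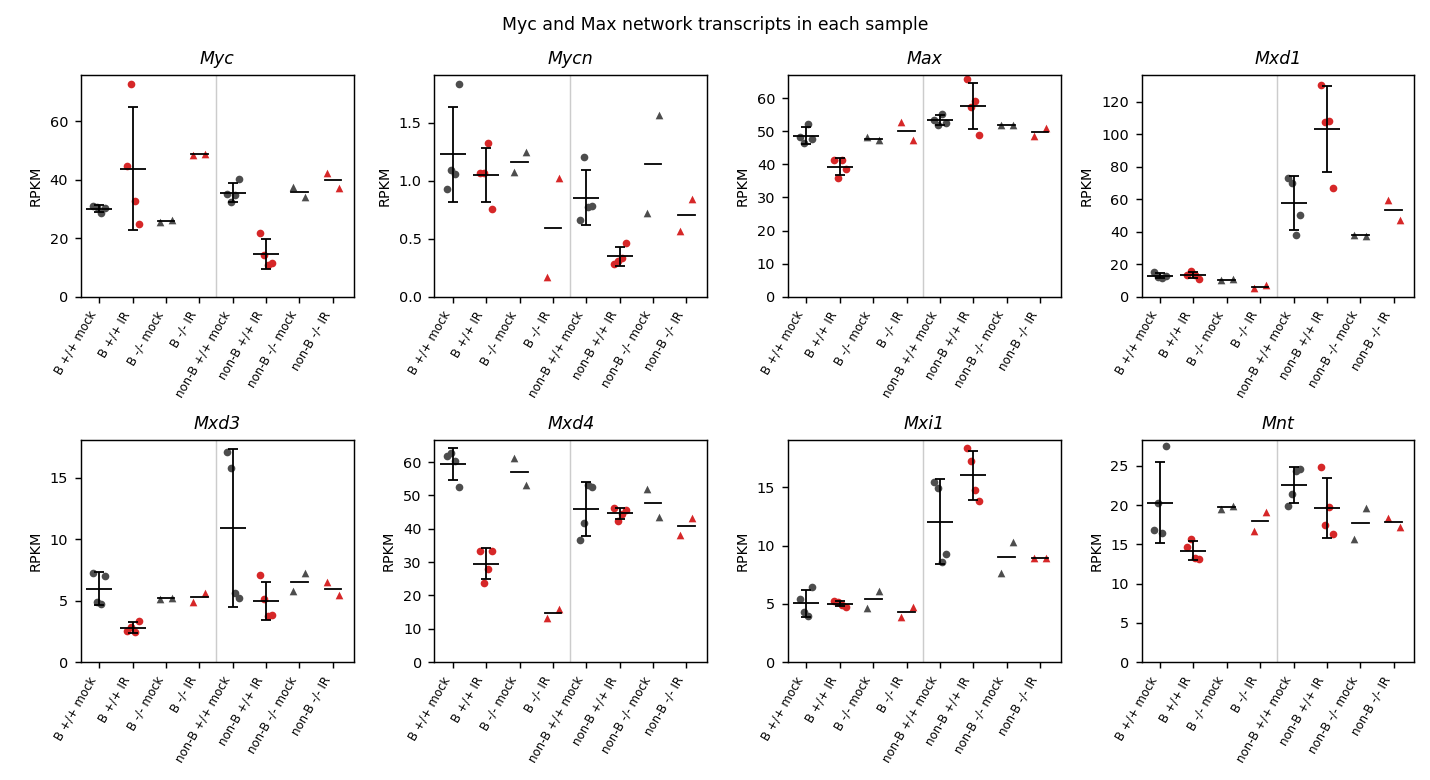
RPKM of each factor (vertical axes, from 0) in every sample of the 8 groups (horizontal axes), grey for mock, red for IR, circles for Trp53+/+ and triangles for Trp53-/-; long ticks are means and error bars SD (n = 4), and groups of 2 show the mean only. Myc fell in irradiated Trp53+/+ non-B cells to 10.9 to 21.9 RPKM, while Mxd4 fell in irradiated B cells of both genotypes.

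Among the 8 factors, Max and Mnt varied least over the group means, by 1.47 times and 1.59 times from the lowest to the highest group. Mxd1 varied most, by 16.6 times, and Mxd4, Mxd3, Mxi1, Mycn and Myc by 4.08, 3.90, 3.75, 3.53 and 3.32 times. In mock Trp53+/+ B cells, the order by mean RPKM, which is per length, was Mxd4 (59.5), Max (48.6), Myc (30.1), Mnt (20.3), Mxd1 (12.9), Mxd3 (5.96), Mxi1 (5.03) and Mycn (1.23). In the matching non-B cells it was Mxd1 (57.9), Max (53.3), Mxd4 (46.0), Myc (35.6), Mnt (22.6), Mxi1 (12.05), Mxd3 (10.9) and Mycn (0.86).

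Between the cell types of mock Trp53+/+ mice, Mxd1 and Mxi1 were the members that differed past both thresholds, and both were lower in B cells. That is 2 of 8, where 24.6% of the 14598 genes tested were called, 7.38% higher and 17.2% lower. Mxd1, a repressing partner of Max that is abundant in neutrophils and other myeloid cells, stood at 15.2, 12.04, 11.8 and 12.6 RPKM in mock Trp53+/+ B cells and at 73.2, 70.1, 37.9 and 50.4 RPKM in mock non-B cells. The ranges were far apart, with a difference of -2.08 (standard error 0.20, adjusted p = 5.64e-07). Mxi1, a repressor related to Mxd1, was at 5.40, 4.29, 3.96 and 6.47 RPKM in B cells and 15.5, 14.9, 8.56 and 9.28 RPKM in non-B cells, a difference of -1.16 (standard error 0.18, adjusted p = 8.68e-05). The ranges of Mxi1 did not overlap either. Mxd4 had the opposite sign (0.38, standard error 0.12, adjusted p = 0.0172) but lay under the fold threshold. Of 8 myeloid markers, 5 were called as lower and 1 as higher in B cells, and T cell markers (8 of 8, median -3.03) and markers of dividing cells (5 of 8) were called as lower too. The part of these cells in the differences was not tested. No factor was called between mock Trp53-/- and mock Trp53+/+ cells in limma, in B cells (0.0506% of all genes called, 0.0217% higher and 0.0289% lower) or in non-B cells (0.0428%, 0.0143% higher and 0.0285% lower), and 0 of 8 had an unadjusted p under 0.05 in either. The 95% intervals of these differences (Trp53-/- minus Trp53+/+) reached from -1.50 for Mxd3 to 0.79 for Mycn, both in non-B cells. With Trp53+/+ replicates 1 and 2 alone, 1 factor was called between the genotypes in mock non-B cells.

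Myc, the activating member with the highest level, responded to IR differently in the 2 cell types of Trp53+/+ mice. It fell in non-B cells, where it was at 34.95, 32.4, 34.6 and 40.3 RPKM in mock samples and at 21.9, 14.4, 10.9 and 11.4 RPKM after IR. Every irradiated sample lay below every mock sample, and Myc fell by 1.30 on the log2 scale (standard error 0.18, adjusted p = 0.000691), to a level 2.46 times lower. Leaving out any single library kept the call, with log2 changes between -1.51 and -1.18. Without p53 the non-B values were 37.5 and 34.2 RPKM before and 42.3 and 37.2 RPKM after IR, which overlapped (0.15, standard error 0.25, adjusted p = 0.838). The responses of the genotypes differed by -1.45 (95% interval -2.13 to -0.77, adjusted p = 0.02). That difference was no longer called without Trp53-/- non-B mock sample 1 (adjusted p = 0.0516), mock sample 2 (adjusted p = 0.0863) or IR sample 1 (adjusted p = 0.0945), nor with Trp53+/+ replicates 1 and 2 alone (-1.05, adjusted p = 0.0516) or with the receptor gene share as a covariate (-1.15, adjusted p = 0.0834). Cell type markers moved in the same Trp53+/+ non-B comparison, where 4.11% of all genes were called as lower. B cell markers summed to 309 to 495 RPKM in mock and 199 to 394 RPKM in irradiated samples, with 2 of 8 called as lower, and 7 erythroid markers to 114 to 282 and 22.9 to 73.3 RPKM, with 4 called as lower. T cell markers summed to 390 to 562 RPKM in mock and 305 to 406 RPKM in irradiated samples, with 2 of 8 called as lower (median -0.36), and markers of dividing cells had 3 of 8 called as lower (median -1.45). The part of these cells in the Myc values was not tested.

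B cells of Trp53+/+ mice had Myc at 31.0, 30.5, 28.5 and 30.4 RPKM in mock samples and at 44.7, 72.7, 32.7 and 24.8 RPKM after IR. Irradiated samples 1 to 3 were above all mock samples and sample 4 was below them, and the change of 0.42 was not called (standard error 0.23, adjusted p = 0.157). The highest values were those of IR samples 1 and 2, the libraries with the highest receptor gene shares of that group. With replicates 1 and 2 of the Trp53+/+ samples alone Myc rose by 0.88 (adjusted p = 0.00674), with replicates 3 and 4 alone the change was -0.05 (adjusted p = 0.769), and with the receptor gene share as a covariate it was -0.21 (adjusted p = 0.343). Without IR sample 4 it was called as higher (0.65, adjusted p = 0.0154). Without p53, Myc of B cells went from 25.6 and 26.1 RPKM to 48.5 and 48.6 RPKM, 2 irradiated samples with receptor gene shares of 6.88% and 13.1%. This rise of 0.90 passed the threshold narrowly (standard error 0.33, adjusted p = 0.0473), with both irradiated samples above both mock samples. It was no longer called in 9 of 12 fits that left out 1 library, namely any of the 4 Trp53-/- B cell libraries (0.89 to 0.91, adjusted p = 0.118 to 0.144), any of the 4 Trp53+/+ mock libraries (adjusted p = 0.0593 to 0.0612) or Trp53+/+ IR sample 1 (adjusted p = 0.0557), and in fits with no filter (adjusted p = 0.0724) or median-ratio scaling (adjusted p = 0.0518). The responses of the 2 genotypes of B cells differed by -0.48 with an interval of -1.36 to 0.40 (adjusted p = 0.451), and this difference was called without Trp53+/+ B cell IR sample 2 (-0.76, adjusted p = 0.0439), with replicates 3 and 4 alone (-0.95, adjusted p = 0.0117) and with the covariate (-1.03, adjusted p = 0.0128).

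The Myc response of Trp53+/+ B cells exceeded that of Trp53+/+ non-B cells by 1.72 (95% interval 0.97 to 2.46, adjusted p = 0.00192), and this held in each fit that left out 1 library (1.44 to 1.95, adjusted p up to 0.00509). Over all groups, Myc was highest in irradiated Trp53-/- B cells (mean 48.6 RPKM) and lowest in irradiated Trp53+/+ non-B cells (14.6 RPKM). Ranges of neighbours in this order overlapped down to mock Trp53+/+ non-B cells (35.6 RPKM) and were apart from there on, through mock Trp53+/+ B cells (30.1 RPKM) and mock Trp53-/- B cells (25.9 RPKM) to the lowest group.

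Mycn, which is known mainly from embryonic and neural tissue, was close to the detection limit everywhere, with group means between 0.35 and 1.23 RPKM and an estimated 5 to 56 reads a sample. In Trp53+/+ non-B cells it was at 0.66, 1.20, 0.77 and 0.79 RPKM in mock and 0.28, 0.31, 0.34 and 0.46 RPKM in irradiated samples. The groups did not overlap and Mycn fell by 0.67 (standard error 0.20, adjusted p = 0.0426). It passed the filter through mock sample 2 alone, so that it was not tested without it. The call was lost in 8 of the 11 other fits that left out 1 library, those without Trp53+/+ non-B mock samples 1, 3 or 4, without IR samples 1, 2 or 3, and without either Trp53-/- IR sample (-0.74 to -0.63, adjusted p = 0.0529 to 0.0936), and also with a pseudocount of 1 (adjusted p = 0.0532), replicates 1 and 2 alone (adjusted p = 0.14) or the receptor gene share as a covariate (adjusted p = 0.16). Trp53+/+ B cells had Mycn at 0.93 to 1.83 RPKM in mock and 0.76 to 1.32 RPKM in irradiated samples (-0.14, adjusted p = 0.672), and Trp53-/- non-B cells at 0.72 and 1.57 RPKM in mock and 0.56 and 0.85 RPKM in irradiated samples (-0.41, adjusted p = 0.543). B cells of Trp53-/- mice had Mycn at 1.08 and 1.25 RPKM in mock and 0.17 and 1.02 RPKM in irradiated samples (-0.72, adjusted p = 0.136). Of the 12 fits without 1 library, it was called in that without IR sample 2 (-1.32, adjusted p = 0.0106). For no neighbouring pair in the order of its group means were the ranges apart.

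Max, the common partner, changed little in size. Values in Trp53+/+ B cells went from 48.3, 46.4, 52.2 and 47.6 RPKM to 41.3, 35.9, 41.3 and 38.7 RPKM. All irradiated samples were below all mock samples, and the fall of 0.31 (standard error 0.06, adjusted p = 0.00145) passed the p threshold but not the fold threshold. The Trp53-/- B cell values were 48.2 and 47.4 RPKM before and 52.7 and 47.5 RPKM after IR. The responses differed between the genotypes by -0.37 (95% interval -0.61 to -0.13, adjusted p = 0.0333), a call that was lost without Trp53-/- mock sample 1 (adjusted p = 0.102) or 2 (adjusted p = 0.116), Trp53-/- IR sample 1 (adjusted p = 0.161), and Trp53+/+ mock sample 1 (adjusted p = 0.056) or 3 (adjusted p = 0.0549). It was also lost with median-ratio scaling (adjusted p = 0.0937), with Trp53+/+ replicates 1 and 2 (adjusted p = 0.0606) or 3 and 4 (adjusted p = 0.0775) alone, and with the receptor gene share as a covariate (adjusted p = 0.0689). Non-B cells of Trp53+/+ mice had Max at 51.9 to 55.3 RPKM in mock and 48.8 to 65.6 RPKM in irradiated samples (0.11, adjusted p = 0.382). Its values in Trp53-/- non-B cells were 52.0 and 51.9 RPKM before and 48.6 and 51.0 RPKM after IR (-0.06, adjusted p = 0.854). The responses in the cell types of Trp53+/+ mice differed by -0.41 (95% interval -0.65 to -0.18, adjusted p = 0.0113), which was lost with replicates 3 and 4 alone (adjusted p = 0.177).

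Of the 5 repressing partners, Mxd4 had the lowest adjusted p in irradiated B cells of both genotypes. In Trp53+/+ B cells it was at 61.9, 62.9, 60.4 and 52.6 RPKM in mock samples and at 33.2, 23.8, 27.9 and 33.2 RPKM after IR. No irradiated sample reached the mock range, and Mxd4 fell by 1.01 (standard error 0.11, adjusted p = 9.49e-06). The Trp53-/- B cells went from 61.3 and 53.1 RPKM to 13.3 and 15.9 RPKM, and Mxd4 so fell by 1.94 (standard error 0.15, adjusted p = 2.57e-06), to a level 3.83 times lower. The fall was larger without p53, and the difference of 0.93 between the responses (95% interval 0.52 to 1.34, adjusted p = 0.00549) was called in every fit that left out 1 library, with adjusted p up to 0.0397. Non-B cells of Trp53+/+ mice had Mxd4 at 36.8, 41.6, 53.1 and 52.4 RPKM in mock and 46.1, 42.4, 44.6 and 45.6 RPKM in irradiated samples. The irradiated values lay within the mock range (-0.02, 95% interval -0.28 to 0.23, adjusted p = 0.902), and the Trp53-/- non-B values of 51.9 and 43.6 RPKM before and 38.2 and 43.2 RPKM after IR also gave no call (-0.22, adjusted p = 0.556). The response in Trp53+/+ B cells was lower than that in non-B cells by 0.98 on the log2 scale (-0.98, 95% interval -1.34 to -0.63, adjusted p = 0.000498). B cell markers were called as lower for 2 of 8 genes in irradiated B cells of each genotype, with median changes of -0.10 in Trp53+/+ and -0.22 in Trp53-/- cells. Of all genes, 12.2% in Trp53+/+ and 11.2% in Trp53-/- B cells were called as lower.

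Mxd3, a repressing partner that is known from dividing cells, fell in Trp53+/+ B cells. Mock samples were at 7.26, 4.85, 4.74 and 6.98 RPKM and irradiated samples at 2.49, 2.88, 2.46 and 3.37 RPKM. The groups were apart, with a fall of 0.95 (standard error 0.16, adjusted p = 0.000312) that stayed called without any single library. Without p53, Mxd3 of B cells was at 5.12 and 5.24 RPKM before and 4.89 and 5.62 RPKM after IR. This change of 0.02 had an interval of -0.47 to 0.50, and the genotypes differed by -0.97 (95% interval -1.56 to -0.37, adjusted p = 0.0291). The difference was lost without any of the 4 Trp53-/- B cell libraries (adjusted p = 0.0617 to 0.102), without Trp53+/+ mock sample 1 (adjusted p = 0.0525) or without Trp53+/+ IR sample 1 (adjusted p = 0.0503), and with replicates 3 and 4 alone (adjusted p = 0.117). The Trp53+/+ non-B mock samples were at 17.1, 15.8, 5.58 and 5.21 RPKM and the irradiated samples at 7.11, 5.09, 3.78 and 3.82 RPKM. Mock samples 1 and 2 stood apart from 3 and 4, and the change of -0.92 was not called (standard error 0.36, adjusted p = 0.0991). The replicate numbers, which the labels do not define, were taken to pair these samples. With this replicate block Mxd3 was called as lower (standard error 0.21, adjusted p = 0.0185). It was also called without mock sample 4 (-1.18, adjusted p = 0.0462). The Trp53-/- non-B values were 5.80 and 7.21 RPKM before and 6.496 and 5.43 RPKM after IR, with overlap (-0.11, adjusted p = 0.95), and the genotype difference of -0.80 (adjusted p = 0.456) was called with replicates 1 and 2 alone (-1.26, adjusted p = 0.0435). Part of the Mxd3 exons, 104 bases, overlaps Prelid1 on the other strand, and reads from this stretch could not be told apart.

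The 8 markers of dividing cells (Mki67 and Top2a among them) were summed beside Mxd3. Their summed level was 62.1 to 146 RPKM in mock and 48.8 to 67.4 RPKM in irradiated Trp53+/+ B cells. There 7 of 8 were called as lower, against 12.2% of all genes. For Trp53-/- B cells 0 of 8 were called in limma, against 24.3% of all genes, and 0 of 8 had an unadjusted p under 0.05. Their sum was 76.1 to 77.001 RPKM before and 84.3 to 95.5 RPKM after IR. In mock Trp53+/+ non-B samples 1 to 4 it was 354, 330, 100.8 and 119 RPKM, so that the samples with high Mxd3 also had a high sum, and 7 erythroid markers summed to 282, 272, 118 and 114 RPKM in the same order. Of the erythroid markers, 4 of 7 were called as lower after IR in each Trp53+/+ cell type. The shares of all genes called as lower were 12.2% in B and 4.11% in non-B cells. The part of dividing or erythroid cells in the Mxd3 values was not tested.

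Mxd1 rose in Trp53+/+ non-B cells and fell in Trp53-/- B cells. The Trp53+/+ non-B samples went from 73.2, 70.1, 37.9 and 50.4 RPKM to 131, 108, 108 and 67.0 RPKM. The irradiated sample 4 lay within the mock range, and the rise of 0.84 was called (standard error 0.23, adjusted p = 0.0273). The call was lost without mock sample 3 (0.65, adjusted p = 0.0541) or 4 (0.79, adjusted p = 0.0611), without IR sample 1 (0.71, adjusted p = 0.0753), 2 (0.81, adjusted p = 0.0608) or 3 (0.80, adjusted p = 0.0725), and with the receptor gene share as a covariate (0.95, adjusted p = 0.123). Without p53, non-B cells had 38.1 and 37.6 RPKM of Mxd1 before and 59.8 and 47.1 RPKM after IR. Both irradiated samples were above both mock samples, but the change of 0.48 was not called (standard error 0.32, adjusted p = 0.516), nor was the genotype difference of 0.36 (95% interval -0.51 to 1.22, adjusted p = 0.605).

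In Trp53+/+ B cells Mxd1 was at 11.8 to 15.2 RPKM in mock and 11.2 to 15.9 RPKM in irradiated samples (0.05, adjusted p = 0.779). In Trp53-/- B cells Mxd1 fell by 0.74 on the log2 scale, from 10.04 and 11.1 RPKM to 5.08 and 7.34 RPKM (standard error 0.19, adjusted p = 0.00686). The genotypes of B cells differed by 0.79 (95% interval 0.30 to 1.29, adjusted p = 0.0309). The fall was lost without Trp53-/- mock sample 2 (-0.67, adjusted p = 0.0529) or IR sample 1 (-0.50, adjusted p = 0.0832), and the difference without Trp53-/- mock sample 1 (adjusted p = 0.0735) or 2 (adjusted p = 0.121), Trp53-/- IR sample 1 (0.55, adjusted p = 0.163), and Trp53+/+ mock sample 2 (adjusted p = 0.0581) or 3 (adjusted p = 0.0563). The difference was also lost with replicates 1 and 2 (adjusted p = 0.0575) or 3 and 4 (adjusted p = 0.101) alone and with the covariate (0.64, adjusted p = 0.0801). Of the myeloid markers, 1 of 8 was called as higher in the Trp53-/- B cells, against 13.1% of all genes. They summed to 206 and 229 RPKM before and 136 and 231 RPKM after IR. Of these libraries, IR sample 1 had the lowest sum and the lowest Mxd1. IR sample 2 had the highest sum, with Mxd1 below both mock samples. For Trp53+/+ non-B cells this sum was 517 to 692 RPKM in mock and 596 to 889 RPKM in irradiated samples. There 1 of 8 markers was called as higher, against 5.74% of all genes. The part of myeloid cells in the Mxd1 values was not tested. The responses of Mxd1 in both Trp53+/+ cell types differed by -0.79 (95% interval -1.40 to -0.18), just beyond the threshold (adjusted p = 0.0502). It was called without non-B mock sample 1 (adjusted p = 0.0257) or 2 (adjusted p = 0.0338), B cell IR sample 2 (adjusted p = 0.0408) or non-B IR sample 4 (-0.99, adjusted p = 0.00875). A pseudocount of 1 (adjusted p = 0.0484), a filter of RPKM above 1 in at least 4 samples (adjusted p = 0.0479) and median-ratio scaling (adjusted p = 0.0488) also gave the call.

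**Figure D2:**
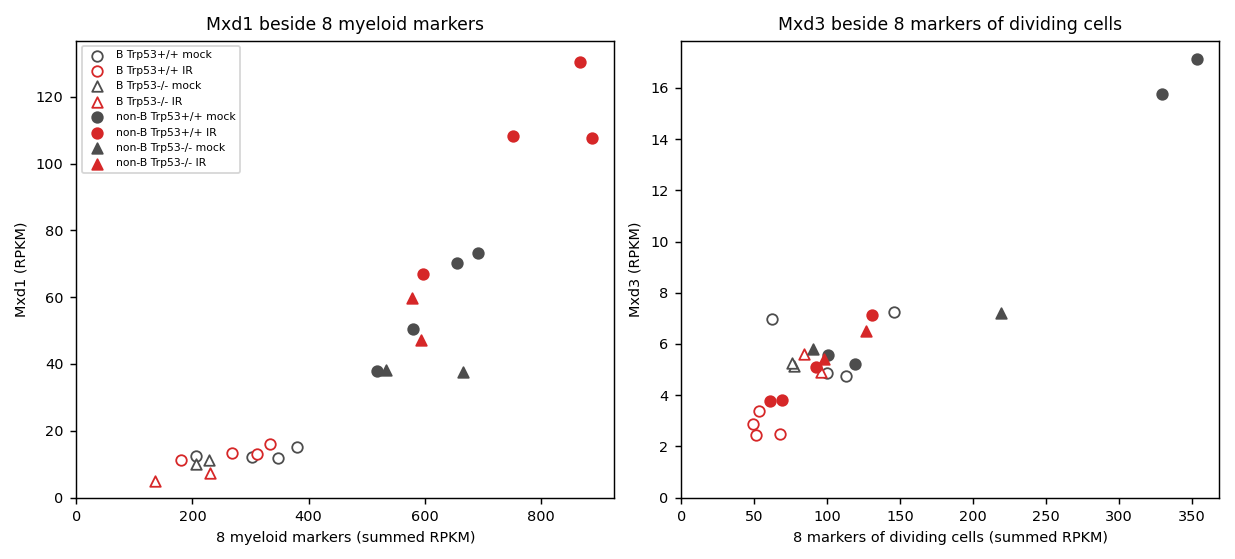
Left, Mxd1 (RPKM) against the sum of 8 myeloid markers (RPKM); right, Mxd3 (RPKM) against the sum of 8 markers of dividing cells (RPKM), with 1 point a sample, open for B and filled for non-B cells, grey for mock and red for IR, circles for Trp53+/+ and triangles for Trp53-/-. The mock Trp53+/+ non-B samples with Mxd3 at 17.1 and 15.8 RPKM also had the highest sums of dividing cell markers, 354 and 330 RPKM.

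Mxi1 and Mnt were not called in any IR comparison. Mxi1 in Trp53+/+ non-B cells was at 15.5, 14.9, 8.56 and 9.28 RPKM in mock and 18.4, 17.3, 14.8 and 13.8 RPKM in irradiated samples, with overlapping ranges (0.44, standard error 0.19, adjusted p = 0.13). In Trp53-/- non-B cells it was at 7.64 and 10.3 RPKM before and 8.96 and 8.94 RPKM after IR. In B cells it stayed between 3.83 and 6.47 RPKM in all 12 samples. The Mxi1 exons share 194 bases with the predicted gene Gm10197 on the other strand. Mnt, a broadly expressed repressor, went from 16.8, 20.3, 16.5 and 27.6 RPKM to 14.6, 15.7, 13.3 and 13.2 RPKM in Trp53+/+ B cells. All irradiated samples lay below all mock samples and the fall of 0.47 passed the p threshold (standard error 0.14, adjusted p = 0.0118) but not the fold threshold. Without p53, Mnt of B cells was at 19.6 and 19.9 RPKM before and 16.7 and 19.2 RPKM after IR, and the genotype difference of -0.34 was not called (95% interval -0.86 to 0.18, adjusted p = 0.357). The fall in Trp53+/+ B cells passed both thresholds with replicates 3 and 4 alone (-0.67, adjusted p = 0.0316) and with the receptor gene share as a covariate (-0.63, adjusted p = 0.0136). In non-B cells Mnt stayed between 15.7 and 24.9 RPKM in all 12 samples, with changes of -0.21 in Trp53+/+ (adjusted p = 0.277) and 0.02 in Trp53-/- cells (adjusted p = 0.987).

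**Figure D3:**
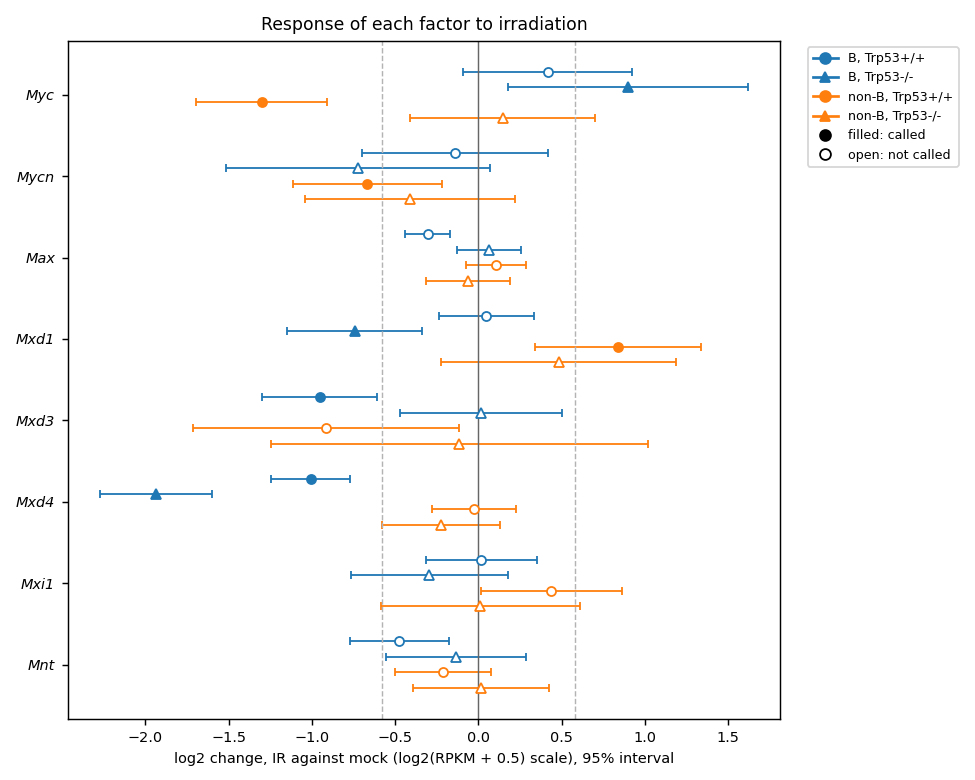
Log2 change after IR (horizontal axis) of each factor (vertical axis) with its 95% interval from limma, blue for B and orange for non-B cells, circles for Trp53+/+ and triangles for Trp53-/-, filled where called; dashed lines mark 0.58 in both directions. The intervals of Myc lie on opposite sides of 0 in Trp53+/+ non-B cells (-1.69 to -0.91) and Trp53-/- B cells (0.18 to 1.62).

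Counted over the network, 2 of 8 factors were called in Trp53+/+ B cells, Mxd3 and Mxd4, both lower, where 24.7% of all 13821 genes were called, 12.5% of all higher and 12.2% lower. In Trp53-/- B cells 3 were called, Myc higher and Mxd1 and Mxd4 lower, against 24.3% of all genes (13.1% higher, 11.2% lower). The genotype difference was called for 4 factors in B cells (Max, Mxd1, Mxd3 and Mxd4; 18.8% of all genes) and for Myc alone, with a lower response in Trp53+/+ cells, in non-B cells (7.35%, of which 3.98% of all genes higher and 3.37% lower). In Trp53+/+ non-B cells 3 were called, Mxd1 higher and Myc and Mycn lower, against 9.85% of 14018 genes. Mycn passed the filter there through mock sample 2 alone, in the group where it was higher, so that its call adds no support to this count. In Trp53-/- non-B cells 0 of 8 were called by limma, with 0 at an unadjusted p under 0.05, and 0.442% of all genes were called there, with 2 samples a group. The difference between the cell types was called for Myc, Max and Mxd4, against 28% of 14598 genes. By the exact two-sided permutation test over 4 against 4 samples, the irradiated samples lay below all mock samples for 4 factors in B cells (Max, Mxd3, Mxd4 and Mnt), where 46.2% of all genes did not overlap in either direction and 23.3% were lower in this way. The same held for Myc and Mycn in non-B cells, where 22.1% of all genes did not overlap and 12.1% were lower. Mycn adds no support here either, since it passed the filter through mock sample 2 alone. Each of these 6 had p = 0.0286, the smallest that this permutation test can give, and an adjusted p = 0.0762 over the 16 tests.

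As a description with no test, the summed RPKM of the 5 repressing partners was set against that of Myc and Mycn. In Trp53+/+ B cells the repressing sum was 3.31 ± 0.02 times the activating sum in mock samples and 1.69 ± 0.71 times after IR (SD, n = 4). For Trp53-/- B cells these ratios were 3.77 and 3.495 before and 0.90 and 1.06 after IR. The ratio of Trp53+/+ non-B cells was higher after IR, going from 4.14 ± 0.69 to 13.1 ± 2.83 (SD, n = 4), and in Trp53-/- non-B cells it was 3.11 and 3.31 before and 3.07 and 3.21 after IR. Mxd4 had the highest mean of the 5 in mock B cells, and Mxd1 in Trp53+/+ non-B cells before and after IR. In Trp53+/+ non-B cells myeloid markers had a median change of 0.33 after IR. Medians of B cell, T cell, erythroid and dividing cell markers were -0.56, -0.36, -2.35 and -1.45. The part of cell types in these sums was not tested.

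**Figure D4:**
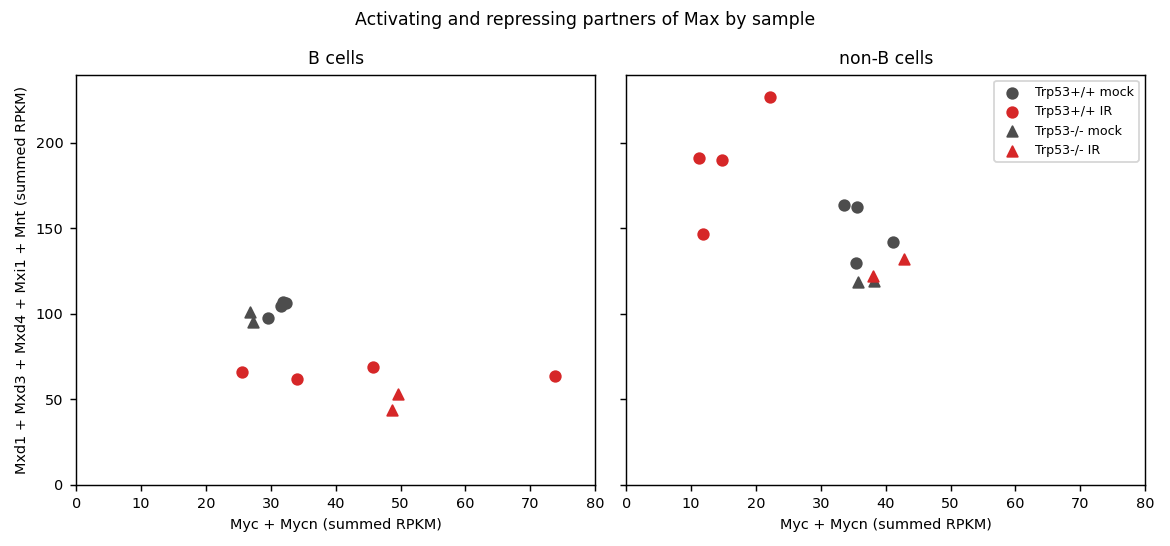
Summed RPKM of Mxd1, Mxd3, Mxd4, Mxi1 and Mnt (vertical axes) against summed RPKM of Myc and Mycn (horizontal axes) in each sample of B cells (left) and non-B cells (right), grey for mock, red for IR, circles for Trp53+/+ and triangles for Trp53-/-. Irradiated Trp53+/+ non-B samples lie at the left, with activating sums of 11.2 to 22.2 RPKM, and irradiated Trp53-/- B samples at the bottom, with repressing sums of 43.8 and 52.8 RPKM.

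A list of 35 textbook Myc-activated genes, for ribosome production, nucleotide and polyamine synthesis and growth, was followed in the same fits. It was chosen with earlier results of these data known, so that its counts beside the shares of all genes are a description and no independent support. In Trp53+/+ B cells 23 of 35 were called as higher and 0 as lower (median 0.79, against 0.01 over all genes, of which 12.5% were called as higher). Of the same genes, 33 were higher and 0 lower in Trp53-/- B cells (median 1.07, with 13.1% of all genes called as higher). Cad, the enzyme of the first steps of pyrimidine synthesis, rose from 19.3 ± 2.50 to 99.9 ± 2.29 RPKM in Trp53+/+ B cells (SD, n = 4), a change of 2.35 (adjusted p = 3.76e-10), and from 17.9 to 48.4 RPKM in Trp53-/- B cells (1.41, adjusted p = 2.57e-06). Rrp12 (ribosome assembly) rose from 12.1 to 32.6 RPKM in Trp53+/+ and from 11.3 to 42.5 RPKM in Trp53-/- B cells (adjusted p = 4.88e-09 and 3.16e-07). Srm (spermidine synthase) and Shmt2 (mitochondrial serine metabolism) rose by 1.32 and 1.26 in Trp53+/+ and by 1.72 and 1.48 in Trp53-/- B cells. Tert, the catalytic subunit of telomerase, rose in Trp53+/+ B cells from 2.87 ± 0.31 to 7.68 ± 1.45 RPKM (1.27, adjusted p = 1.79e-05), and was at 2.21 and 2.54 RPKM in mock and irradiated Trp53-/- B cells on average (0.16, adjusted p = 0.588).

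The response was lower in Trp53+/+ than in Trp53-/- B cells for 17 of the 35 target genes (10.6% of all genes) and higher for Cad and Tert (8.14% of all genes). The lower count was 10 with median-ratio scaling, 6 with Trp53+/+ replicates 3 and 4 alone and 4 without Trp53-/- B cell IR sample 1. The counts of 23 and 33 stayed between 21 and 24 and between 31 and 33 when single libraries were left out, and were 22 and 33 with Trp53+/+ replicates 3 and 4 alone. Non-B cells of Trp53+/+ mice had Cad and Tert called as higher (5.74% of all genes) and Cdk4, Srm and Ppat as lower (4.11%), and 30 were not called, with a median of -0.26 against -0.03 over all genes. With the receptor gene share as a covariate 0 were called as higher and 1 as lower, and with replicates 3 and 4 alone 1 and 2. Srm fell there from 29.6 ± 3.87 to 17.5 ± 2.47 RPKM (SD, n = 4; -0.74, adjusted p = 0.00443). In Trp53-/- non-B cells 26 of 35 had an unadjusted p under 0.05, a level at which the share of all genes was not counted. Nop16 and Rrp12 were called as higher there (0.193% of all genes), and the median of the 35 was 0.43. The count of 2 was 0 with no filter, with the replicate block or without Trp53-/- non-B mock sample 1, and 6 with median-ratio scaling. Cdk4, Ppat and Nop16 were named after their values were seen. The genotype difference in non-B cells was called as lower for 22 of 35 (median -0.80, 3.37% of all genes), a count of 8 with the receptor gene share as a covariate, 14 with Trp53+/+ replicates 3 and 4 alone and 6 without Trp53-/- non-B IR sample 1. The difference between the cell types was called as higher in Trp53+/+ B cells for 32 of 35 (15.4% of all genes; 31 to 34 without single libraries).

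**Figure D5:**
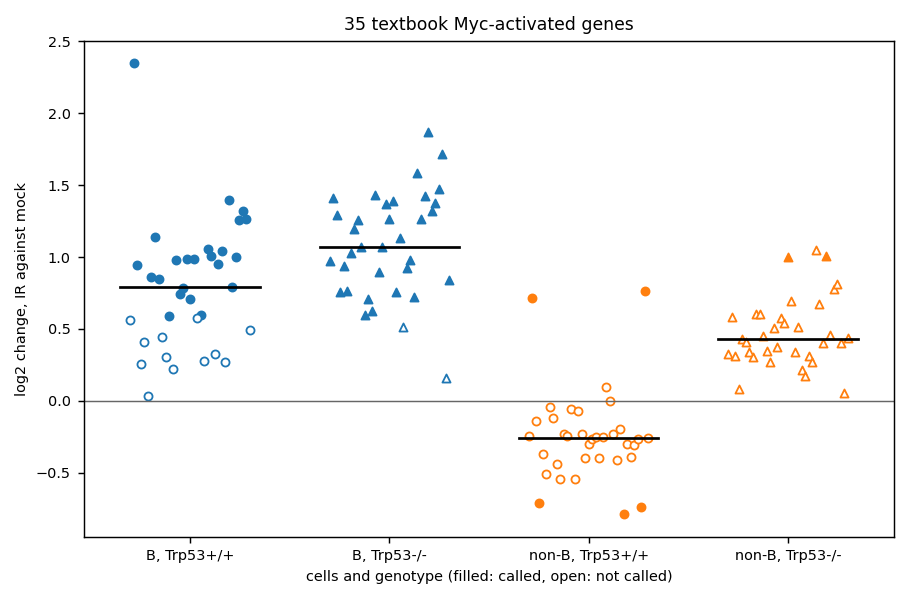
Log2 change after IR (vertical axis) of 35 Myc-activated genes in 4 comparisons (horizontal axis), 1 point a gene, filled where called, with the median as a black line. The medians are 0.79 and 1.07 in Trp53+/+ and Trp53-/- B cells, and -0.26 and 0.43 in Trp53+/+ and Trp53-/- non-B cells.

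Other lists of the pathway were shorter and were likewise chosen with earlier results of these data known. Of 5 further network genes in the files (Mycl, Mlx, Mlxip, Mlxipl and Mga), 4 were tested. Of these 4, 1 was called as lower in Trp53+/+ B cells, against 12.2% of all genes. Mycl, another Myc paralogue, fell there from 2.74 ± 0.70 to 1.21 ± 0.35 RPKM (SD, n = 4; -0.92, adjusted p = 0.00849). Of 11 Myc coactivators 0 were called by limma in either Trp53+/+ IR comparison, against 24.7% of all genes in B and 9.85% in non-B cells. At an unadjusted p under 0.05 there were 10 in B and 6 in non-B cells, and the share of all genes at that p was not counted. In Trp53-/- B cells 4 were called as higher, against 13.1% of all genes. These were Ruvbl1 (1.31), Ruvbl2 (0.99), Kat2a (1.03) and Wdr5 (0.84), named after their values were seen, and for all 4 the genotype difference was called (adjusted p = 0.00404 to 0.0184). Of 8 corepressor genes, 2 were called as higher in Trp53+/+ B cells, against 12.5% of all genes. Sap30, a subunit of the Sin3 complex, was among them (0.64, adjusted p = 0.0242). In Trp53-/- B cells 1 of the 8 was called as higher, against 13.1% of all genes. This was Hdac2 (0.67, adjusted p = 0.000115), named after its value was seen. Of 8 genes listed for the turnover of Myc protein, 1 was called as lower in Trp53+/+ B cells, against 12.2% of all genes. This was Aurka, a mitotic kinase (-0.64, adjusted p = 0.00635). In Trp53-/- B cells 2 of the 8 were called as higher, against 13.1% of all genes. Usp36 was among them (0.66, adjusted p = 0.00105) and was named after its value was seen. In non-B cells after IR, limma called 0 genes of these 4 lists in either genotype, out of 4, 11, 8 and 8 tested. Over all genes, 9.85% were called there in Trp53+/+ and 0.442% in Trp53-/- cells. At an unadjusted p under 0.05 the lists had 9 in Trp53+/+ and 6 in Trp53-/- cells, and the share of all genes at that p was not counted.

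Across the 24 samples, the genes with the highest Pearson correlation to each factor on the log2 scale were Mta2 (r = 0.91), Chd4 (0.90) and Prpf8 (0.89) for Myc. For Mycn they were Sox5 (0.75), Samd4 (0.75) and Prox2 (0.74), and for Max Stard3 (0.94), Stk40 (0.90) and Adipor2 (0.89). Mxd1 was most like Cd33 (0.99), Ppp1r3b (0.99) and Il1f9 (0.99), and Mxi1 like Bmx (0.98), Fam217b (0.97) and Ctbp2 (0.97), and these 2 factors had r = 0.96 with each other. Mxd3 was most like Casc5 (0.92), Cdk1 (0.92) and Kif11 (0.91), Mxd4 like Arhgef18 (0.96), Rasa3 (0.95) and Ano6 (0.94), and Mnt like Dyrk1b (0.86) and Camta2 (0.82). Cdk1 is also one of the markers of dividing cells. The 24 points share cell type, genotype and treatment, so that these values describe shared differences between groups and are given with no test.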

How the data were processed

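Before deposit, the authors masked bases of quality below 20, used TopHat for alignment to mm9, reduced duplicates to 1 read, and counted on UCSC gene models with featureCounts 1.4.5. TopHat2 2.0.8 is the version in the submitters' processing notes. Keeping 1 read per duplicate limits high values (highest RPKM of a library 157 to 307). They deposited RPKM, scaled to reads on exons, for 21671 genes per sample. Libraries were unstranded. The labels do not tie samples to animals, so that p-values measure the spread between samples. The study's methods speak of 4 and 2 mice per condition.

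Here limma 3.58.1 (R 4.3.3; lmFit, contrasts.fit, eBayes with a mean-variance trend) was fitted to log2(RPKM + 0.5) over all genes above 1 RPKM in at least 1 Trp53+/+ sample, in 3 fits, namely the 12 B samples, the 12 non-B samples, and the 16 Trp53+/+ samples. The members and lists were chosen with earlier results of these data known. Named genes were the 8 factors, up to 5 genes of each list with the largest change among those called in a Trp53+/+ IR comparison, and the 3 most correlated genes for each factor (RPKM above 1 in at least 4 samples). Some genes that this rule names are not reported here. Same-numbered Trp53+/+ non-B mock and IR samples deviated together (r = 0.32, 0.16, 0.22 and 0.32), so that the numbers were taken to pair them. The labels do not say what the numbers mean, and differently numbered samples were not compared, so that this pairing is an assumption. In no other pair of Trp53+/+ groups was r over 0.1 for every number, and pairs of groups with 2 samples were too few to be judged. Depth was estimated from the steps that whole reads leave in low values (60.3% to 76.1% of these within 0.1 of a whole read), and is approximate. The depth estimate and the fit of the B samples were tried on simulated data. The fits of the non-B samples and of the Trp53+/+ samples were not. Of 200 simulated IR changes in Trp53+/+ B cells, 181 were called at a log2 change of 0.8 and 195 at 1.5. False calls were 1 and 2. Of 100 simulated genotype differences, 40 were called at 0.8 and 90 at 1.5. A genotype difference near 0.8 that was not called may therefore have been missed. These rates hold for the simulated setting, with 200 changed genes drawn from those above a mean of 2 RPKM in mock Trp53+/+ B cells. In the data 18.8% of genes passed the test of the genotype difference in B cells, so that recovery there may differ. The alternatives were pseudocounts of 0.1 and 1, other filters, median-ratio scaling and a replicate block over all samples of a fit. Others were replicate pairs 1 and 2 or 3 and 4, a receptor gene covariate, and leaving out each library. Other steps used Python 3.11.15.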

Additional observations from a re-analysis of the deposited data

Results flagged for a closer look

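In B cells, the test of the difference between the IR responses of Trp53+/+ and Trp53-/- cells passed for Max (-0.37), Mxd1 (0.79), Mxd3 (-0.97) and Mxd4 (0.93), all on the log2 scale, of which only that of Mxd4 stayed called in each of the 12 fits without 1 library. In non-B cells it passed for Myc (-1.45). The responses of Trp53+/+ B and non-B cells differed for Myc (1.72), Max (-0.41) and Mxd4 (-0.98). In none of the 32 groups of 4 samples did 1 sample of a factor stand apart from the other 3 by Dixon's 95% criterion, which flags about 1 in 20 groups by chance.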

How the results depend on the processing

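Fitted log2 changes of the 8 factors kept their direction and side of the threshold in 1299 values under other settings or without 1 library. Of the others, 61 lost the call, 26 gained it and 37 changed sign, the last in values that were not called. Differences between genotypes in mock cells were not part of this tally. Where a library was left out of a Trp53-/- group, the lone sample was assumed to vary like the others. The cause was not tested in any case below. With a pseudocount of 1, the Mxd3 difference between cell types was 0.0039 (main -0.037). With median-ratio scaling, Mxd3 in Trp53-/- B cells was -0.018, all-gene medians moved by less than 0.1, and the share of higher calls in Trp53-/- non-B cells went from 43.5% to 55.0%. The same share went from 43.4% to 52.7% for the genotype difference in B cells, from 54.1% to 47.8% for that in non-B cells and from 55.0% to 49.7% for the difference between cell types. Trp53+/+ replicates 1 and 2 alone gave 0.056 for Mycn in Trp53+/+ B cells, 0.17 for Mxd4 and 0.015 for Mnt in Trp53+/+ non-B cells, and 0.36 for the Mxd3 difference between cell types. Replicates 3 and 4 alone gave -0.049 for Myc and -0.069 for Mxi1 in Trp53+/+ B cells, -0.0035 for Max in Trp53+/+ non-B cells, and 0.087 for Mxd3 between mock B and non-B cells. With the receptor gene share as a covariate, Myc (-0.21), Mxd1 (-0.12) and Mxi1 (-0.065) changed sign in Trp53+/+ B cells. Replicates 1 and 2 alone also gave calls for Mxd3 in Trp53+/+ non-B cells (-1.38, adjusted p = 0.00783) and for Mxd3 (-1.39) and Mxd4 (0.67) between mock B and non-B cells, and replicates 3 and 4 alone for Mxi1 in Trp53+/+ non-B cells (0.65, adjusted p = 0.0452).

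Without single libraries, values that changed sign ran for Mycn from -0.22 to 0.015 in Trp53+/+ B cells, from -0.013 to 1.18 for the genotype difference in B cells and from -0.64 to 0.12 for that in non-B cells. For Max they ran from -0.0093 to 0.14 in Trp53-/- B cells, for Mxd1 from -0.037 to 0.13 and for Mxi1 from -0.077 to 0.14 in Trp53+/+ B cells. For Mxd3 the ranges were -0.077 to 0.11 in Trp53-/- B cells, -0.26 to 0.032 in Trp53-/- non-B cells and -0.31 to 0.23 for the difference between cell types. Mxd4 in Trp53+/+ non-B cells ran from -0.13 to 0.049, and in Trp53-/- non-B cells Mnt ran from -0.14 to 0.17 and Mxi1 from -0.20 to 0.22.

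Counts of genes called moved most where few were called. In Trp53-/- non-B cells after IR (62), they were 36 with no filter, 24 with replicates 1 and 2 alone and 0 to 49 without single libraries. Between genotypes in mock cells, they were 13 (main 7; 5 to 13 without single libraries) in B cells and 49 (main 6; 3 to 7) in non-B cells with replicates 1 and 2 alone, and 3 in non-B cells with replicates 3 and 4 alone. The genotype difference (2594 in B, 1031 in non-B cells) gave 1473 and 654 with replicates 3 and 4 alone, 405 in non-B cells with the covariate, and 1257 to 2691 and 307 to 1347 without single libraries. Trp53+/+ non-B cells after IR (1381) gave 511 with the covariate and 918 to 1425 without single libraries.

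Of the 8 factors, the genotype difference in B cells was called for 2 with either pair of replicates (main 4; 1 to 5 without single libraries). In mock cells, replicates 1 and 2 alone gave 1 called factor between genotypes in non-B cells and 4 between B and non-B cells (main 2; 2 to 3). With the covariate, 1 was called in Trp53+/+ non-B cells (main 3; 1 to 3) and 0 for the genotype difference there (main 1; 0 to 1). Without single libraries, 1 to 3 were called in Trp53-/- B cells, 2 to 3 in Trp53+/+ B cells and 3 to 4 for the difference between cell types.

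With the replicate block, 17 genes were called in Trp53-/- non-B cells after IR and 11 between genotypes in mock non-B cells. Beside Mxd3 in Trp53+/+ non-B cells, the block changed 1 call among the factors, that of the Mxd1 difference between cell types (adjusted p = 0.019), where the numbers were not shown to pair samples. Since same-numbered Trp53-/- non-B samples deviated oppositely (r = -0.25), crossed numbers were tried after seeing the data and gave 152 and 13 calls. Depth limited Mycn most, with 5 to 56 estimated reads a sample.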
